A study of Mus musculus with 12 samples.

Results

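BMP2ADV20a and BMP2ADV148b are hybrid plasmids named after BMP2 and after the microRNA that each adds, and cells given BMP2ADV20a were compared with cells given BMP2ADV148b. The libraries were chosen by their titles alone, 3 of each plasmid, which is 6 of the 12 libraries of the study, and every gene of the count files was kept. Of 47643 genes, 13229 passed the filter on low counts and were tested. The other 6 libraries, 3 from the hybrid BMP2ADV590 and 3 from the plasmid BMP2ADV, entered the same fit, and BMP2ADV, which carries no added microRNA in its name, serves below as a common base line. The cells of all 12 libraries were C3H/10T1/2, a mouse line from embryonic tissue that the labels describe as fibroblast in morphology and list under sarcoma. All groups carried a BMP2 plasmid and none was untransfected, so each difference below lies between cells that had all received BMP2, with miR-20a on one side and miR-148b on the other. The plasmids (0.5 µg per square cm) were delivered with the polymer TurboFect as a transient, non-viral transfection, the medium was changed after 4 h, and total RNA was taken 3 days later. The labels give neither the share of transfected cells nor whether replicates were separate cultures, and the p-values therefore measure the spread between these libraries, which may be technical.

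A microRNA is a short RNA that guides an Argonaute protein to messenger RNAs, mostly through pairing of its seed, the bases near its 5′ end, with the 3′ untranslated region (3′ UTR), and so lowers their stability and translation. miR-20a belongs to the miR-17 family, known for promoting proliferation and, in human bone-forming cells, for acting on inhibitors of BMP signalling. miR-148b belongs to the miR-148 family, known for targeting the DNA methyltransferase Dnmt1. Several of the gene lists used here concern interferon, a cytokine that cells make when sensors find foreign nucleic acid: it acts through the receptor Ifnar and transcription factors such as Irf9, which switch on antiviral genes through a promoter element called ISRE. Type II interferon acts at a second element, GAS, and inflammatory chemokines depend largely on NF-kB.

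The guide strands of both microRNAs are shown first because their seeds define what each plasmid could act on directly. Sequences are from RefSeq (GRCm38.p6), and capitals mark the seed, bases 2 to 8.
mmu-miR-20a-5p: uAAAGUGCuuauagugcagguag
mmu-miR-148b-3p: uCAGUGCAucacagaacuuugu
The seeds differ but share the run AGUGC, 5 bases long. RefSeq lists 7 mouse microRNAs with the miR-20a seed, among them miR-17, miR-93 and miR-106b, and 3 with the miR-148b seed, miR-148a among them. The mature microRNA is too short to be captured by the assay, so its level was not measured. The sources used here do not say which species and which stretch of each precursor the plasmids carry.

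The BMP2ADV20a libraries were deeper than the BMP2ADV148b libraries, with 10868968 to 14727288 against 9236431 to 9750598 gene counts, but the number of genes above 0 overlapped, at 17354 to 17493 against 17121 to 17401. QuantSeq reads the 3′ ends of polyadenylated transcripts, and levels are given as CPM, the count of a gene scaled to the library's total with TMM factors. Gm42418, a model lying over ribosomal RNA sequence, took 8.08% to 8.43% of the counts in BMP2ADV20a and 4.07% to 7.41% in BMP2ADV148b, and the part of this difference in the results was not tested. The labelled cell type held up against its markers: all 16 mesenchymal genes were detected and summed to 22300 to 23300 CPM in BMP2ADV20a and 20900 to 22200 CPM in BMP2ADV148b. Of 11 macrophage markers 2, Adgre1 and Tyrobp, had 0 counts in all 12 libraries. The list summed to 7.26 to 8.05 CPM in BMP2ADV20a against 8.51 to 11.1 CPM in BMP2ADV148b, so that the sum was lower in every BMP2ADV20a library. The mean log2 CPM of its 4 tested members overlapped, at 0.213, 1.016 and 1.039 against 0.776, 1.294 and 0.862. Of these members 2 had positive and 2 negative log2 fold changes, with 0 at an unadjusted p under 0.05 by edgeR. The part of this list in the immune results was not tested. Epithelial markers summed to 2.34 to 3.63 against 2.76 to 3.57 CPM, with Epcam at 0 in all 6 libraries. Skeletal muscle markers, with Myod1 among the 6 of 10 at 0 in all 12 libraries, summed to 37.2 to 41.8 against 30.0 to 33.2 CPM. Neural markers summed to 108 to 139 against 102 to 104 CPM, and endothelial markers to 27 to 39.3 against 22.8 to 34 CPM. By edgeR 2 of 4 tested neural and 2 of 2 tested endothelial markers had an unadjusted p under 0.05, all higher in BMP2ADV20a. Over all tested genes 7.79% had such a p, and 0 markers of these 2 lists were called. In bulk RNA, fewer cells expressing a gene and less RNA per cell cannot be told apart.

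The miR-148b label was visible in the counts. Mir148b (ENSMUSG00000065560, GRCm38 chromosome 15, 103285125 to 103285221), which lies in an intron of Copz1, had 0, 0 and 0 counts in the BMP2ADV20a libraries and 211, 215 and 204 in the BMP2ADV148b libraries (21.95 ± 0.741 CPM, SD, n = 3). The groups were apart by at least 280-fold, taking 3 counts over the group as what a total of 0 allows; amplified reads carry no molecular tags here, so this limit covers counting error only. Copz1 itself differed by 0.11 on the log2 scale (adjusted p = 0.836). The miR-20a label could not be checked in the same way, since Mir20a (chromosome 14, 115044157 to 115044263) had 0 counts in all 12 libraries. Mir17hg, the host transcript of the miR-17 to miR-92 cluster that holds miR-20a, had 3.29, 2.47 and 2.81 CPM in BMP2ADV20a against 4.81, 5.09 and 5.47 CPM in BMP2ADV148b. These values did not overlap, but the difference of -0.84 missed the threshold (adjusted p = 0.551). Bmp2 had 60, 40 and 32 counts in BMP2ADV20a and 33, 78 and 42 in BMP2ADV148b, and its difference of -0.65 had a 95% interval from -1.36 to 0.06 (adjusted p = 0.692). The sources used here do not give the species of the plasmids' BMP2. Whether these counts include its transcript was not tested, so they do not show equal BMP2 doses.

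Cells given BMP2ADV20a had lower levels of interferon-stimulated genes, of the chemokines Cxcl10, Ccl2, Ccl7 and Cxcl1 and of immunoproteasome genes than cells given BMP2ADV148b. The largest differences among the better expressed genes were log2 fold changes of -1.71, -1.58 and -1.53, in Cxcl10, Mx1 and Rsad2. Few genes were higher, by at most 0.53 on the log2 scale, and they included the smooth muscle actin Actg2 and the tropomyosin Tpm2. No gene of the osteoblast, chondrocyte or BMP target lists passed the test. At an adjusted p under 0.05 (edgeR quasi-likelihood test, Benjamini-Hochberg), 74 genes differed, or 0.559% of those tested: 67 were lower in BMP2ADV20a (0.506%) and 7 higher (0.0529%). Unadjusted, 1031 genes (7.79%) had a p under 0.05. The 3 libraries of one group lay wholly apart from those of the other in 1855 genes (14.0%), lower in BMP2ADV20a in 985 (7.45%) and higher in 870 (6.58%). Among called genes this held for 66 of the 67 lower ones, Ccl5 being the exception, and for all 7 higher ones. Genes named below for the size of their change had to meet this condition, so for them it is no separate support. The count of calls rested on both groups: it was 22 without BMP2ADV20a replicate 1, 42 without BMP2ADV20a replicate 3, 24 without BMP2ADV148b replicate 1 and 48 without BMP2ADV148b replicate 2.

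**Figure D1:**
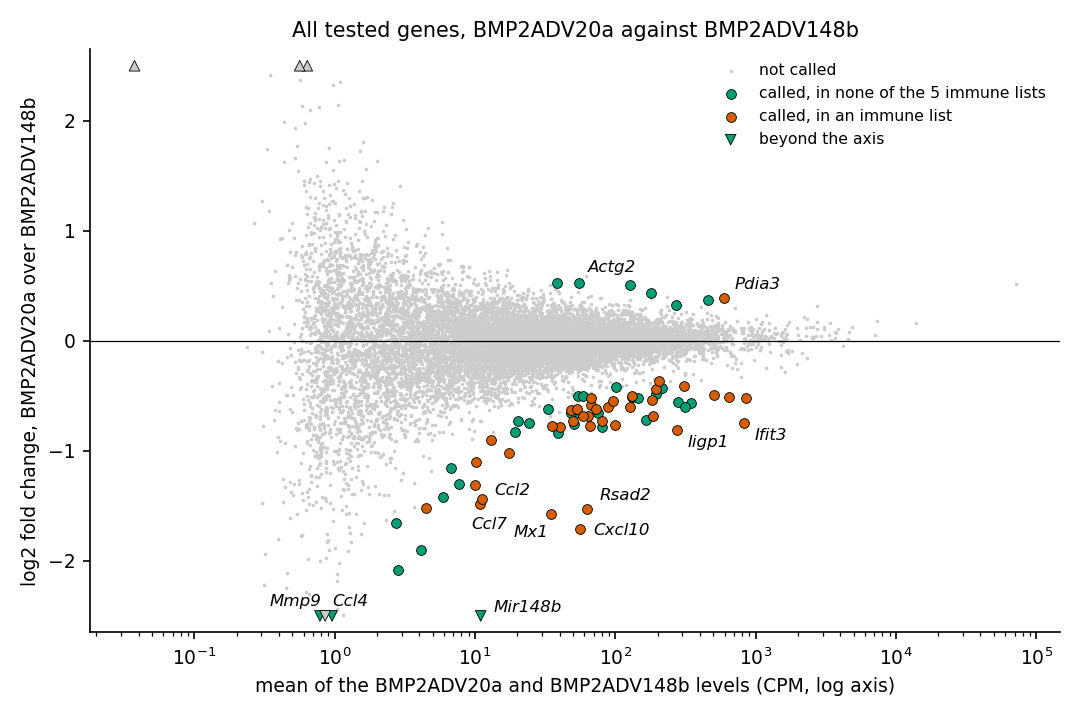
Log2 fold change of BMP2ADV20a over BMP2ADV148b (vertical) against the mean CPM of both groups (horizontal, log axis) for the 13229 tested genes; orange marks called genes of the 5 immune lists, green other called genes, and triangles genes beyond the axis. Of the 74 called genes, 67 lie below 0 and 7 above it, and no called rise exceeds 0.53.

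Of the 67 lower genes, 37 stood in at least 1 of 5 immune lists: interferon response, interferon-inducible GTPases and p200 genes, NF-kB inflammatory genes, MHC class I presentation, and nucleic acid sensors and interferon factors. These lists hold 116 tested genes in all. The median log2 fold change of the 67 was -0.72, and 18 of them were under -1. Many were neighbours: 27 of the 67 (40.3%) lay in 10 runs with gaps of at most 100 kb between lower genes. How often tested genes at large lie in such runs was not computed, so the share describes these genes only. The longest runs were Ifi207, Ifi204, Mndal and Ifi203 on chromosome 1 (173723427 to 173942672), where all 6 tested genes had negative values, and Gbp5, Gbp7, Gbp3 and Gbp2b on chromosome 3 (142493978 to 142619179). Cxcl9, Cxcl10 and Cxcl11 sat together on chromosome 5 (92321347 to 92365485), as did Ifit3, Ifit3b and Ifit1 on chromosome 19 (34583531 to 34650009), and Psmb9, Tap1 and Psmb8 on chromosome 17 (34181987 to 34201454). The remaining runs were the pairs Rsad2 and Cmpk2, Mx1 and Mx2, Oasl2 and Oasl1, Ccl2 and Ccl7, and Igtp and Irgm2. Near-identical copies among these genes (Ifit3 and Ifit3b, Mx1 and Mx2, the Gbp, Ifi20x and H2 genes) share sequence, as do Igtp and Irgm2, which overlap on the same strand. Their single values are uncertain where the counting could not separate them. Psmb9 and Tap1 overlap only at their 5′ ends, on opposite strands, whereas QuantSeq reads 3′ ends.

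In the interferon response list, antiviral effectors and regulators were lower together in BMP2ADV20a. Of 41 tested members 17 fell (41.5%, against 0.506% of all tested genes) and 0 rose, 39 had negative values, and the median log2 fold change was -0.49, against -0.0010 over all tested genes. The mean log2 CPM of the list was 5.94, 6.17 and 5.95 in the BMP2ADV20a libraries, 6.72, 6.51 and 6.42 in the BMP2ADV148b libraries, and 6.27, 6.38 and 6.24 in the BMP2ADV libraries. All 3 BMP2ADV20a libraries were thus below the BMP2ADV libraries, and all 3 BMP2ADV148b libraries above them. The BMP2ADV590 libraries, at 5.771, 5.935 and 5.862, lay lower still, so a low level was not particular to BMP2ADV20a. BMP2ADV148b replicate 1 was the highest of all, and without it 7 members were called lower; the number was 9 without BMP2ADV20a replicate 1 and 10 without BMP2ADV20a replicate 3.

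Rsad2 (ENSMUSG00000020641, chromosome 12, 26442746 to 26456452), which encodes viperin, an enzyme that makes a chain-terminating nucleotide, had 28.1, 34.7 and 35.1 CPM in BMP2ADV20a against 117.1, 97.8 and 66.4 CPM in BMP2ADV148b. Mx1 (ENSMUSG00000000386, chromosome 16, 97447035 to 97462907), a dynamin-like GTPase that blocks influenza viruses, had 17.1, 19.1 and 16.0 CPM against 62.5, 53.8 and 39.8 CPM. In both genes the lowest BMP2ADV148b library stood well above the highest BMP2ADV20a library, though the BMP2ADV148b libraries were themselves spread. The naming rule for the largest calls required that these groups not overlap. The log2 fold changes were -1.53 (SE 0.153, adjusted p = 4.04e-06) for Rsad2 and -1.58 (SE 0.161, adjusted p = 4.04e-06) for Mx1. Mx2, the adjacent paralog, fell by 0.77 (adjusted p = 0.00178), with 64.6, 83.7 and 71.6 CPM against 144.7, 125.5 and 104.1 CPM. GENCODE M21 lists Mx2 as a polymorphic pseudogene. Cmpk2, a mitochondrial nucleotide kinase next to Rsad2, fell by 1.02 (adjusted p = 0.0149), a call lost in 4 of the fits that left out a library.

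The Ifit genes encode proteins that bind foreign RNA and hold back its translation. Ifit3 (chromosome 19) had 539.3, 728.7 and 586.4 CPM in BMP2ADV20a against 1162, 999.5 and 955.1 CPM in BMP2ADV148b, with no overlap (log2 fold change -0.75, SE 0.11, adjusted p = 0.000634). Ifit3b fell by 0.68 (SE 0.093, adjusted p = 0.000294) and Ifit1 by 0.51 (adjusted p = 0.00204). Isg15, a ubiquitin-like modifier, had 621.5, 718.3 and 743.8 CPM against 1061, 888 and 1045 CPM (-0.52, adjusted p = 0.0194), and Usp18, the protease that removes it, fell by 0.44 (adjusted p = 0.0194). Oasl1 and Oasl2, relatives of the oligoadenylate synthetases, fell by 0.90 (adjusted p = 0.00995) and 0.54 (adjusted p = 0.00307).

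Among the transcription factors of the pathway, Irf1, which is itself induced by interferon, had 38.6, 39.7 and 35.7 CPM in BMP2ADV20a against 64.1, 60.9 and 51.3 CPM in BMP2ADV148b. Its groups were well apart (-0.63, SE 0.112, adjusted p = 0.00538), but the call was lost without BMP2ADV148b replicate 1 (adjusted p = 0.0823). Some other factors missed the threshold, with values of -0.36 for Stat2 (adjusted p = 0.0986), -0.38 for Irf7 (0.182) and -0.19 for Irf9. Ifitm1 and Ifi27 were the members with positive values, 0.48 and 0.26, and neither was called.

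The interferon-inducible GTPases, which act on the membranes around intracellular microbes, and the p200 genes, which encode relatives of a DNA-binding sensor family, had the largest share of calls. Of 17 tested members 10 fell (58.8%, against 0.506% of all tested genes), all 17 had negative values, and the median was -0.73. Iigp1 had 166.5, 236.6 and 195.4 CPM in BMP2ADV20a against 376.7, 349.2 and 323.2 CPM in BMP2ADV148b. Ifi47 had 43.6, 53.6 and 48.4 CPM against 82.9, 80.7 and 85.2 CPM, and Gbp7 had 56.0, 67.0 and 57.3 CPM against 108.7, 102.8 and 86.9 CPM. None of these 3 genes overlapped between the groups, and all 3 kept their call whichever library was left out. For Iigp1 the naming rule for the largest calls required the lack of overlap. Their log2 fold changes were -0.81 (SE 0.108, adjusted p = 0.000245) for Iigp1, -0.77 (SE 0.0952, adjusted p = 7.32e-05) for Ifi47 and -0.73 (SE 0.119, adjusted p = 0.00243) for Gbp7. Igtp, another GTPase, fell by 0.61 (SE 0.115, adjusted p = 0.00961), and the p200 gene Ifi207 by 1.10 (SE 0.222, adjusted p = 0.0148). Irgm1, which regulates the other GTPases of its family, had -0.17 and Tgtp2 -0.01, neither called. Only 3 members of the list were called without BMP2ADV20a replicate 1, without BMP2ADV20a replicate 3 or without BMP2ADV148b replicate 1, and 6 without BMP2ADV148b replicate 2.

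In MHC class I presentation, the parts that cut and carry peptides were lower in BMP2ADV20a, while the class I chains were mostly not called. Of 20 tested members 5 fell and 1 rose (against 0.506% and 0.0529% of all tested genes), and the median was -0.31. Psmb8, a catalytic subunit of the immunoproteasome, had 23.6, 36.7 and 28.0 CPM in BMP2ADV20a against 55.4, 51.7 and 44.9 CPM in BMP2ADV148b. Psmb9, a second such subunit, had 26.2, 31.4 and 20.4 CPM against 47.0, 45.4 and 41.5 CPM, and Tap1, a chain of the peptide transporter, had 50.3, 61.6 and 49.6 CPM against 79.3, 81.6 and 81.7 CPM. All 3 genes had lower values in each BMP2ADV20a library than in any BMP2ADV148b library, which for Psmb8 the naming rule for the largest calls required. The log2 fold changes were -0.78 (SE 0.141, adjusted p = 0.0054), -0.78 (SE 0.157, adjusted p = 0.0151) and -0.59 (SE 0.100, adjusted p = 0.00338). Psmb10, the third catalytic subunit, fell by 0.52 (adjusted p = 0.0192) and the non-classical class I gene H2-T22 by 0.50 (adjusted p = 0.0259). The classical chains H2-K1 and H2-D1 had -0.55 (adjusted p = 0.115) and -0.24, and B2m, the light chain, had -0.15 (adjusted p = 0.652). The member that rose was Pdia3, a chaperone of glycoproteins that also serves the peptide-loading complex, at 705.6, 656.5 and 657.3 CPM against 519.2, 538.6 and 480.6 CPM (0.39, SE 0.082, adjusted p = 0.0192). Without BMP2ADV20a replicate 1 edgeR called 0 members of the list lower, with 7 of them lower at an unadjusted p under 0.05. It called 1 without BMP2ADV148b replicate 1, and 3 without BMP2ADV20a replicate 3 or without BMP2ADV148b replicate 2.

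Among NF-kB inflammatory genes the chemokines differed and the pathway's own components did not pass the test. Of 27 tested members 5 fell, Ccl7, Ccl2, Cxcl1, Ccl5 and Irf1 (which is in both lists), and 0 rose (18.5% lower, against 0.506% of all tested genes), with a median of -0.29. Another chemokine, Cxcl10 (ENSMUSG00000034855, chromosome 5, 92346638 to 92348889), was counted in the interferon list and draws T cells through the receptor Cxcr3. It had 25.9, 32.3 and 20.9 CPM in BMP2ADV20a against 119.4, 79.6 and 60.3 CPM in BMP2ADV148b. Its log2 fold change of -1.71 (SE 0.178, adjusted p = 4.7e-06) was the lowest among called genes with at least 10 CPM, leaving Mir148b aside. Cxcl9 and Cxcl11, ligands of the same receptor that were in none of the 5 lists, fell by 1.41 (adjusted p = 0.0151) and 1.90 (adjusted p = 0.0148). GENCODE M21 lists Cxcl11 as a polymorphic pseudogene.

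Ccl2, a monocyte chemokine, had 6.37, 6.51 and 5.06 CPM in BMP2ADV20a against 20.6, 17.4 and 10.8 CPM in BMP2ADV148b. Its neighbour Ccl7, which acts on some of the same receptors, had 5.53, 6.51 and 4.97 CPM against 19.5, 16.1 and 12.2 CPM, and the neutrophil chemokine Cxcl1 had 5.39, 6.29 and 5.53 CPM against 16.2, 12.8 and 13.7 CPM. The BMP2ADV20a libraries lay close together in all 3 genes. They were below every BMP2ADV148b library, which the naming rule for the largest calls required. The log2 fold changes were -1.44 (SE 0.219, adjusted p = 0.0011) for Ccl2, -1.48 (SE 0.217, adjusted p = 0.000634) for Ccl7 and -1.31 (SE 0.205, adjusted p = 0.00148) for Cxcl1. Ccl5 was the called gene whose groups overlapped, with 39.9, 56.0 and 39.3 CPM against 89.8, 72.2 and 55.6 CPM (-0.69, SE 0.160, adjusted p = 0.0463), and 8 of the 20 alternatives lost it. Ccl4 had 0, 0 and 0 counts against 15, 20 and 10 counts, at least 20-fold lower by the limit of 3 counts over the group (adjusted p = 0.0029). The inhibitor Nfkbia had -0.14, the subunit Nfkb1 -0.21 and the inhibitor Tnfaip3 -0.82 (adjusted p = 0.427), none of them called. Without BMP2ADV148b replicate 1, 3 members of the list were called lower.

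The sensors and the cytokine itself gave little that passed the test. Samhd1, which breaks down deoxynucleotides, was the 1 of 17 tested sensors and interferon factors that was called, at 164.6, 185.6 and 182.5 CPM in BMP2ADV20a against 225.3, 238.2 and 224.5 CPM in BMP2ADV148b (-0.37, SE 0.0854, adjusted p = 0.0438), and 9 of 20 alternatives lost the call. All 17 members had negative values, with a median of -0.35, and 0.506% of all tested genes were called lower. By edgeR 10 of the 17 had an unadjusted p under 0.05, against 7.79% of all tested genes. Limma-voom called 2 members lower and DESeq2 called 3. Ifnb1, the interferon-beta gene, had 5, 16 and 6 counts in BMP2ADV20a, 33, 18 and 10 in BMP2ADV148b and 34, 27 and 18 in BMP2ADV. Replicates overlapped between the hybrids, and the difference of -1.57 had a 95% interval from -2.86 to -0.29 (adjusted p = 0.472). Ifna1, Ifna4, Ifng, Ifnl2 and Ifnl3 had 0 counts in all 12 libraries. Tlr3 and Ddx60 had -0.46 (adjusted p = 0.0639) and -0.44 (adjusted p = 0.133), Cgas -0.22, Mavs -0.18, Ifnar2 -0.12, Tbk1 -0.08 and Ifnar1 -0.01.

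**Figure D2:**
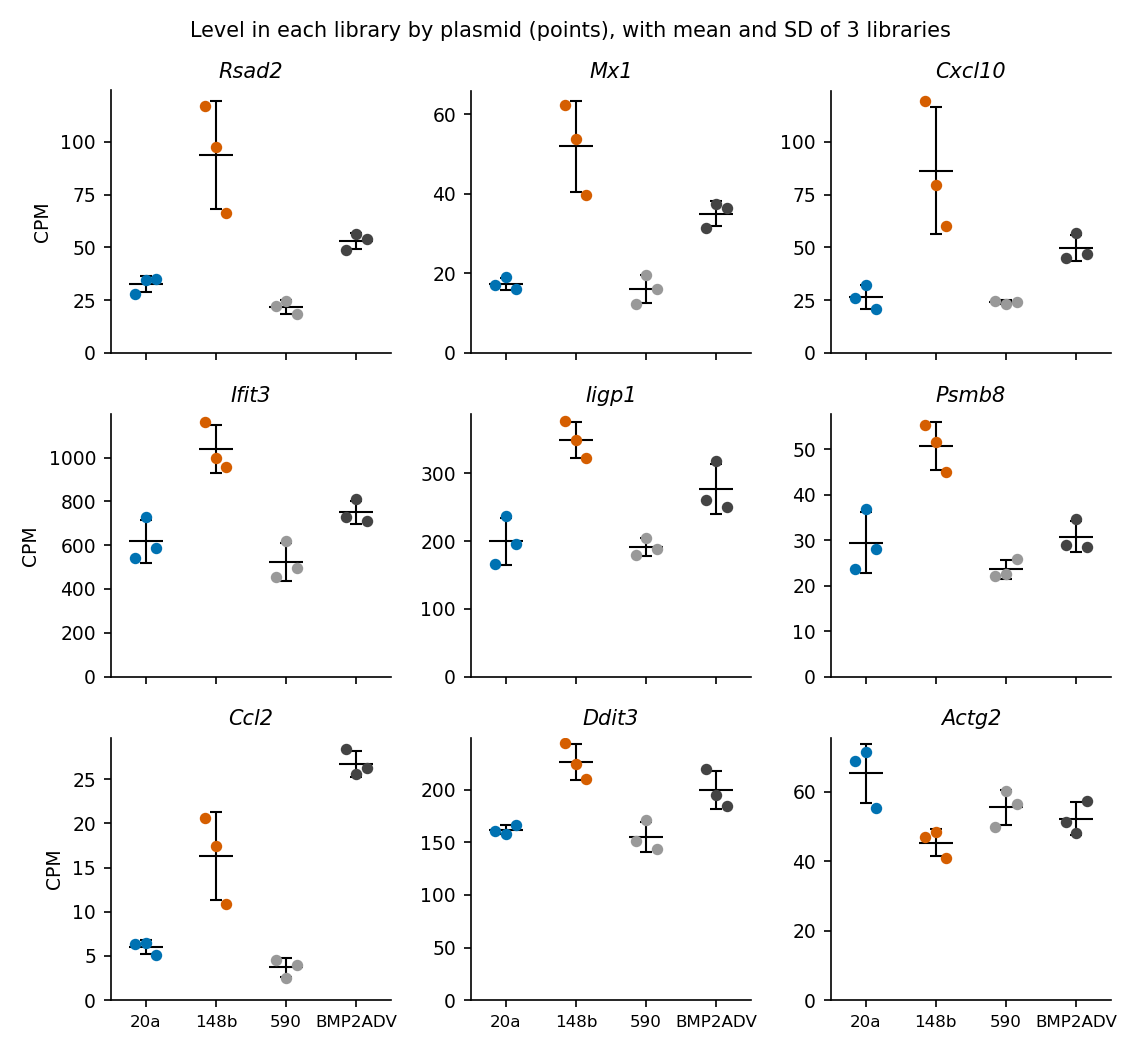
Level in each library (CPM, linear axes, points) with the mean ± SD of 3 (bars) for 9 genes in BMP2ADV20a, BMP2ADV148b, BMP2ADV590 and BMP2ADV, left to right. For Rsad2, Mx1, Cxcl10, Ifit3, Iigp1, Psmb8, Ccl2 and Ddit3 every BMP2ADV20a point lies below every BMP2ADV148b point, and for Actg2 above. The naming rule for the largest calls required this of all but Ifit3 and Ddit3.

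Read against the shared BMP2ADV libraries, the difference lay on both sides, with interferon genes and chemokines below BMP2ADV in BMP2ADV20a and interferon genes above it in BMP2ADV148b. In all, 63 genes differed between BMP2ADV20a and BMP2ADV (0.476%) and 33 between BMP2ADV148b and BMP2ADV (0.249%). Since both sets of values use the same 3 BMP2ADV libraries they are not independent, and they are given side by side only. Of the 67 genes lower in BMP2ADV20a than in BMP2ADV148b, 16 were also called lower in BMP2ADV20a than in BMP2ADV and 10 were called higher in BMP2ADV148b than in BMP2ADV, with 0 calls in the opposite directions. Cxcl10 averaged 26.4 ± 5.73 CPM in BMP2ADV20a, 86.4 ± 30.2 CPM in BMP2ADV148b and 49.6 ± 6.26 CPM in BMP2ADV (SD, n = 3 each). It was called on both sides, at -0.90 (adjusted p = 0.018) in BMP2ADV20a and 0.80 (adjusted p = 0.0465) in BMP2ADV148b, as was Rsad2, at -0.70 (adjusted p = 0.0355) and 0.82 (adjusted p = 0.0178).

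For the monocyte and neutrophil chemokines, the difference from BMP2ADV was called in BMP2ADV20a and not in BMP2ADV148b. Ccl2 averaged 5.98 ± 0.799 CPM in BMP2ADV20a, 16.3 ± 4.97 CPM in BMP2ADV148b and 26.8 ± 1.46 CPM in BMP2ADV, and its log2 fold changes over BMP2ADV were -2.15 in BMP2ADV20a (adjusted p = 8.02e-06) and -0.72 in BMP2ADV148b (adjusted p = 0.187). Ccl7 had -1.55 (adjusted p = 0.000642) and -0.06 (adjusted p = 0.96), and Cxcl1 had -1.63 (adjusted p = 0.000199) and -0.32 (adjusted p = 0.682). Irf1 and Mx2 had the same order, with -0.70 (adjusted p = 0.00197) and -0.07 (adjusted p = 0.905) for Irf1 and -0.89 (adjusted p = 0.000642) and -0.12 (adjusted p = 0.826) for Mx2. BMP2ADV590 averaged 3.70 CPM for Ccl2, 4.91 for Ccl7 and 7.46 for Cxcl1, against 26.8, 16.6 and 17.7 CPM in BMP2ADV. For Irf1 and Mx2 it averaged 28.2 and 62.9 CPM, against 61.8 and 136.1 CPM in BMP2ADV. A low level of these genes was thus not particular to BMP2ADV20a. Psmb8 had -0.06 in BMP2ADV20a (adjusted p = 0.932) and 0.72 in BMP2ADV148b (adjusted p = 0.0337), Ifi47 had -0.25 (adjusted p = 0.367) and 0.53 (adjusted p = 0.0178), and Ifit3b had -0.17 (adjusted p = 0.572) and 0.52 (adjusted p = 0.0178). Whether these groups of genes differ from each other in this respect was not tested.

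**Figure D3:**
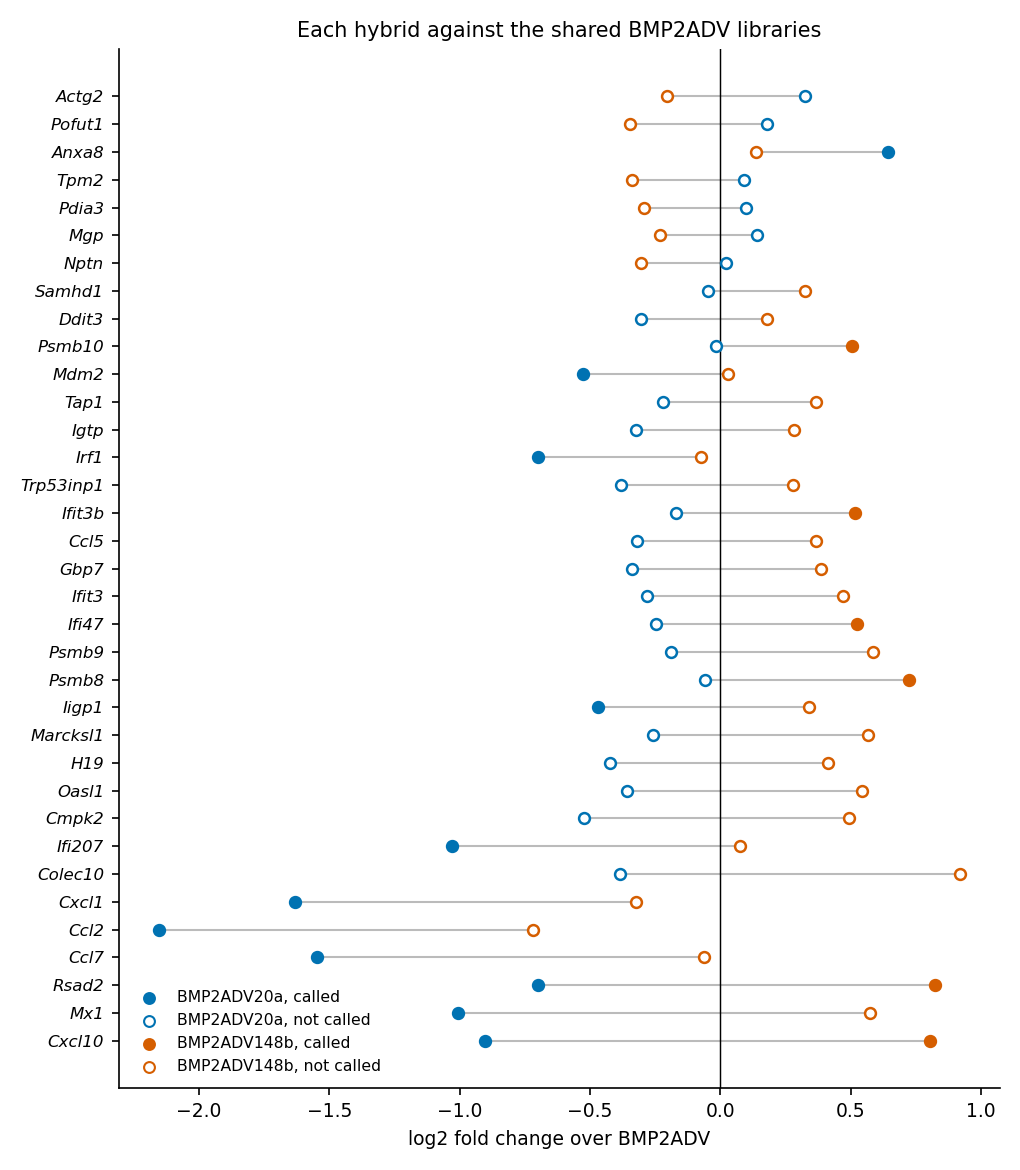
Log2 fold change over BMP2ADV (horizontal) of 35 called genes named by the rule, in BMP2ADV20a (blue) and BMP2ADV148b (orange), with filled points for adjusted p under 0.05 and genes ordered down the page by the difference between the hybrids. Of the 35 genes, 28 lie below 0 in BMP2ADV20a and 10 in BMP2ADV148b, and both sets of points share the BMP2ADV libraries.

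The promoters of a few of these genes are shown because they hold the elements through which interferon and NF-kB are known to act. Each runs from 250 bases before to 50 bases after the annotated start, 5′ to 3′ on the gene's strand (RefSeq, GRCm38.p6). Capitals mark matches on either strand to the ISRE core (GAAA, any 2 bases, GAAA), the GAS core (TTCNNNGAA) and the kB consensus, with overlapping matches of 1 motif drawn as 1 run.
Cxcl10 (chr5:92348840-92349139, minus strand): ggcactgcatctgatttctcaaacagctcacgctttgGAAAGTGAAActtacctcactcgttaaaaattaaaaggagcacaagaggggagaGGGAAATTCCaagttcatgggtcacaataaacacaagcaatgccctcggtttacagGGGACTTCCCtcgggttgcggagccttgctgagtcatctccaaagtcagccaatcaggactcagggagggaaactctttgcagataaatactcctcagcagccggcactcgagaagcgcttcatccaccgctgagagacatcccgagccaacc
Isg15 (chr4:156200769-156201068, minus strand): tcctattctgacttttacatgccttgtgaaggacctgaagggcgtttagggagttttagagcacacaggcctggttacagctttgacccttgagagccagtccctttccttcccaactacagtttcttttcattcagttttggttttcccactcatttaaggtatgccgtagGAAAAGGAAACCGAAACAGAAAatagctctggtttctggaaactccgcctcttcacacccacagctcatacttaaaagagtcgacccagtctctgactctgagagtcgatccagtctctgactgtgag
Ifit3 (chr19:34583279-34583578, plus strand): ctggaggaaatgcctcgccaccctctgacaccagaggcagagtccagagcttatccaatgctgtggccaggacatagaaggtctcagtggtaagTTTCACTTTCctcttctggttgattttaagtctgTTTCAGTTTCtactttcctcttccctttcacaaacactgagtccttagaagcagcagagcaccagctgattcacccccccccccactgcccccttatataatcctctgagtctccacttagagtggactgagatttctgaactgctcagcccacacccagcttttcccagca
Igtp (chr11:58199306-58199605, plus strand): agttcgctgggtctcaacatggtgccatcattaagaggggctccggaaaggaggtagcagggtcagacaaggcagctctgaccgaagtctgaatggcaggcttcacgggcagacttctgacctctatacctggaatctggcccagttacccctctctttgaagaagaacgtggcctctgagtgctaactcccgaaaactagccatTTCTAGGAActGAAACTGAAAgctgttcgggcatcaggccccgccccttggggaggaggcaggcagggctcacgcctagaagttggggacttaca
Cxcl1 (chr5:90890995-90891294, plus strand): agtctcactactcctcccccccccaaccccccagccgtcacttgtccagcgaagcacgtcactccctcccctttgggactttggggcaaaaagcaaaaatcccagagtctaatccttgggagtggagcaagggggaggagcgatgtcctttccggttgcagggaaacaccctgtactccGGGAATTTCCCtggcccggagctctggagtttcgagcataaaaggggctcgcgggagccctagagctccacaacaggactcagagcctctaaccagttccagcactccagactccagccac
Cxcl10 holds 1 ISRE core followed by 2 kB matches, Isg15 3 overlapping ISRE cores, Ifit3 2 ISRE cores read on the other strand, Igtp a GAS core next to an ISRE core, and Cxcl1 2 overlapping kB matches. Of the 67 lower genes 47 had a window in the table, and 18 of them (38.3%) held the ISRE core, against 363 of 9569 tested genes with a window (3.79%). The GAS core was in 7 (14.9%, against 8.28%) and the kB consensus in 8 (17%, against 6.17%). Of the 7 higher genes 5 had a window, with 0 matches to any of the 3. Within the interferon list, the ISRE core was in 6 of 12 called members (50%) and in 9 of 17 members that were tested and not called (52.9%). A match to these letters describes the window and shows no binding.

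Of the 30 lower genes outside the 5 lists, several are also known as interferon-induced, a reading made after their values were seen: Rnf213 (-0.72, adjusted p = 0.000634), Parp12 (-0.51, adjusted p = 0.00307), Helz2 (-0.50, adjusted p = 0.00995), Sp100 (-0.65, adjusted p = 0.0111), Trim30a (-0.52, adjusted p = 0.0259), Daxx (-0.42, adjusted p = 0.0308) and the p200 gene Mndal (-0.42, adjusted p = 0.0148). Others belong to different fields. Colec10, a secreted lectin, had 2.87, 6.06 and 4.40 CPM in BMP2ADV20a against 13.0, 10.6 and 9.25 CPM in BMP2ADV148b (-1.30, SE 0.286, adjusted p = 0.0281). H19, an imprinted non-coding RNA of fetal growth, had 27.2, 23.1 and 33.6 CPM against 45.6, 51.3 and 52.7 CPM (-0.84, SE 0.152, adjusted p = 0.00586), while its imprinted neighbour Igf2 had -0.69 (adjusted p = 0.666). Marcksl1, an actin-binding substrate of protein kinase C, had 12.94, 16.98 and 11.99 CPM against 24.1, 29.2 and 21.2 CPM (-0.83, SE 0.164, adjusted p = 0.0148). None of the 3 overlapped between groups, which the rule that named them required. Each lost its call without BMP2ADV20a replicate 1 and in other fits that left out a library, with adjusted p up to 0.29, 0.0623 and 0.144. Mmp9, a gelatinase and the 1 of 20 matrix remodelling genes called, had 1, 1 and 0 counts against 33, 11 and 10 counts (adjusted p = 0.00705). Over all tested genes 0.506% were called lower. Apod, a lipocalin that carries lipids, fell by 0.60 (adjusted p = 0.00663).

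A few stress genes were lower in BMP2ADV20a, while most members of their lists were not called. Of 22 tested p53 response genes 2 fell (9.09%, against 0.506% of all tested genes) and 0 rose, with a median of -0.18. Mdm2, the ubiquitin ligase that limits p53, had 212.4, 226.7 and 239 CPM in BMP2ADV20a against 375.1, 316.3 and 306.2 CPM in BMP2ADV148b (-0.56, SE 0.0992, adjusted p = 0.00538). Trp53inp1, which assists p53 in cell death and autophagy, had 62.7, 61.9 and 49.2 CPM against 94.1, 90.2 and 91.0 CPM (-0.66, SE 0.0965, adjusted p = 0.000634). Neither gene overlapped between groups. The p53 target and cell cycle inhibitor Cdkn1a, by contrast, had -0.04 (adjusted p = 0.938), Gadd45a -0.54 (adjusted p = 0.264) and Bbc3 -0.33 (adjusted p = 0.466). Ddit3, which encodes the stress factor CHOP, was the 1 of 20 ATF4 amino acid response genes called, at 161.1, 158.3 and 166.8 CPM against 244.1, 224.6 and 209.9 CPM (-0.48, SE 0.0865, adjusted p = 0.0054). The calls of Mdm2 and Ddit3 were lost without BMP2ADV20a replicate 1 or without BMP2ADV148b replicate 1, at adjusted p up to 0.0919 and 0.0829. Of 19 unfolded protein response genes edgeR called 0, with 9 at an unadjusted p under 0.05, all lower in BMP2ADV20a. Over all tested genes 7.79% had such a p in either direction, and 557 of 13229 were lower with it. Limma-voom called 1 of the 19, Hspa5, and DESeq2 called 3, Hspa5, Sdf2l1 and Pdia6. Hspa5 (BiP), which folds secreted proteins, had -0.28 (adjusted p = 0.0544) by edgeR.

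The genes higher in BMP2ADV20a were Actg2, Pofut1, Anxa8, Tpm2, Mgp and Nptn beside Pdia3. Actg2, an actin of smooth muscle, had 68.9, 71.6 and 55.5 CPM in BMP2ADV20a against 46.9, 48.4 and 40.9 CPM in BMP2ADV148b (0.53, SE 0.114, adjusted p = 0.0248). Tpm2, which lies along actin filaments, had 219.1, 202.7 and 193.5 CPM against 171.7, 144.6 and 140.2 CPM (0.43, SE 0.0961, adjusted p = 0.0318). The groups did not overlap in either gene, which the rule that named them required. Both stood among 16 tested contractile genes, of which 2 rose and 0 fell, where 0.0529% of all tested genes rose and 0.506% fell, with a median of 0.19. The related genes Acta2, with 3483, 3010 and 2537 CPM against 2470, 2407 and 2389 CPM (0.31, adjusted p = 0.219), Tagln (0.63, adjusted p = 0.359) and Myl9 (0.23, adjusted p = 0.376) missed the threshold.

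Mgp, the matrix Gla protein that keeps cartilage and vessels from calcifying, had 564.2, 527.9 and 465.8 CPM in BMP2ADV20a against 401.3, 402 and 400.7 CPM in BMP2ADV148b (0.37, SE 0.0796, adjusted p = 0.0232). Pofut1, which adds fucose to Notch receptors, had 44.4, 48.5 and 42.0 CPM against 29.8, 28.9 and 35.2 CPM (0.52, SE 0.113, adjusted p = 0.0253). Nptn, a cell adhesion molecule of the immunoglobulin superfamily, had 319.5, 306.3 and 276.6 CPM against 241.3, 240.1 and 238.6 CPM (0.33, SE 0.0745, adjusted p = 0.0389). All 3 were higher in each BMP2ADV20a library than in any BMP2ADV148b library, which the rule that named them required. Over all tested genes 0.0529% were called higher. Anxa8, an annexin and the 1 of 9 tested genes called in a list of keratins and cornified envelope genes, had 175, 142.2 and 131.7 CPM against 95.9, 115.5 and 104.5 CPM (0.51, SE 0.113, adjusted p = 0.0308). It was the 1 of the 7 also called over BMP2ADV, at 0.64 in BMP2ADV20a (adjusted p = 0.00636), where BMP2ADV148b had 0.14 (adjusted p = 0.795). Each of the 7 lost its call in at least 4 of the 12 fits that left out a library, with adjusted p up to 0.377. These calls are less firm than those of Cxcl10, Mx1 and Rsad2, which none of those fits lost. Some other lower genes were as unstable: Ifi207 lost its call in 5 such fits, and Colec10 and Cmpk2 in 4 each.

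The lists for the tissue that BMP2 directs showed no called gene between the hybrids. By edgeR 0 of 17 tested osteoblast genes, 0 of 18 chondrocyte genes and 0 of 20 BMP-SMAD targets passed (unadjusted p under 0.05 in 6, 1 and 2), and DESeq2 and limma-voom called 0 in each. Over all tested genes 7.79% had such a p. Of the 6 osteoblast genes, 5 were higher in BMP2ADV20a and 1 lower, and the list median was 0.12. The mean log2 CPM of the osteoblast list was 6.076, 6.056 and 6.025 in BMP2ADV20a against 5.932, 5.831 and 5.93 in BMP2ADV148b. It was 6.087, 6.048 and 6.117 in BMP2ADV590. The difference of the list as a whole was not tested. Runx2, the master factor of bone formation, had 0.26 with a 95% interval from 0.05 to 0.47 (adjusted p = 0.445), and Col1a1, the main bone collagen, 0.12 with an interval from -0.07 to 0.32. Sox9, the master factor of cartilage, had 0.01 with an interval from -0.20 to 0.21, and Col2a1, its collagen target, 0.16 with an interval from -0.01 to 0.34. The direct BMP target Id1 had 0.08 with an interval from -0.09 to 0.25. For these 5 genes no interval reached beyond 0.47 in size, whereas that of Sp7, a further bone factor, ran from -0.38 to 1.31. Of 31 mitosis genes edgeR called 0, with 1 at an unadjusted p under 0.05 and a median of -0.0037. Of 30 extracellular matrix genes it called 0, with 7 at an unadjusted p under 0.05, 6 higher and 1 lower in BMP2ADV20a, and DESeq2 called 1, Col8a1. Of 11 small leucine-rich proteoglycans edgeR called 0, with 3 at an unadjusted p under 0.05, all higher in BMP2ADV20a. DESeq2 called 2 of the 11, Fmod and Prelp, which had 0.59 (adjusted p = 0.0507) and 0.40 (adjusted p = 0.0537) by edgeR.

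**Figure D4:**
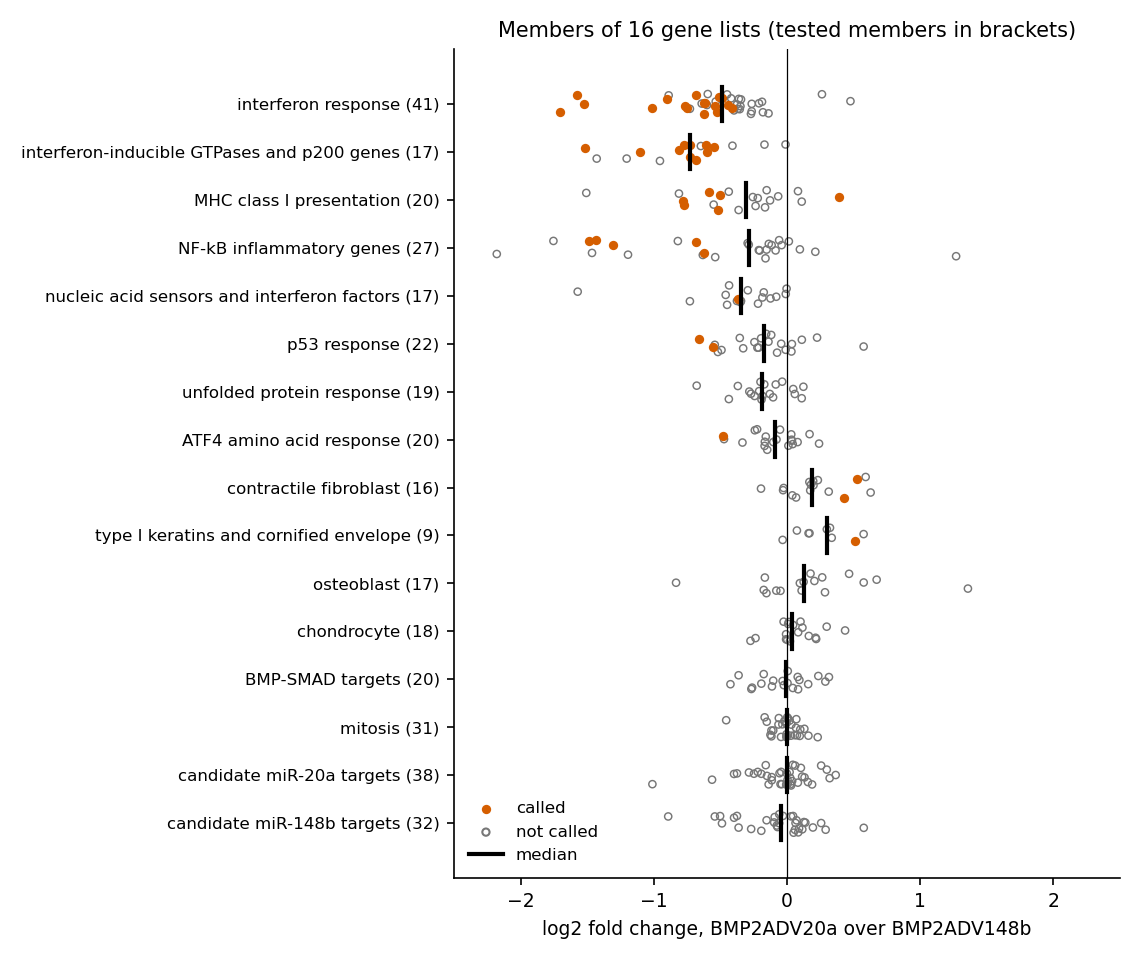
Log2 fold change of BMP2ADV20a over BMP2ADV148b (horizontal) of each tested member (points) of 16 gene lists, with called genes in orange, the list median as a black bar and the number of tested members in brackets. Medians are -0.73 for the interferon-inducible GTPases and p200 genes and -0.49 for the interferon response, 0.19 for contractile genes and 0.03 for chondrocyte genes.

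The microRNA seeds were searched for as 7-base sites, GCACTTT for miR-20a and TGCACTG for miR-148b, in the longest annotated 3′ UTR of 11583 tested genes. The 1365 genes with a miR-148b site alone had a median log2 fold change of 0.030, that is slightly lower in the BMP2ADV148b libraries, and 43.8% of them were below 0. The 1283 genes with a miR-20a site alone had a median of -0.0066 (52.0% below 0), the 461 genes with both -0.0021, and the 8474 genes with neither -0.0036 (50.9% below 0). The differences between these medians were not tested. Over the 20 alternatives the median with a miR-148b site alone ran from 0.022 to 0.036 and that with neither from -0.0089 to 0.0019. Genes with a site had longer 3′ UTRs (medians of 2109 bases with miR-148b and 2258 with miR-20a, against 921 with neither). Split at the median length of 1220 bases, a division added after the data were seen, the median with a miR-148b site alone was 0.029 in 1011 genes above it and 0.031 in 354 at or under it, against -0.014 and 0.0030 with neither.

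**Figure D5:**
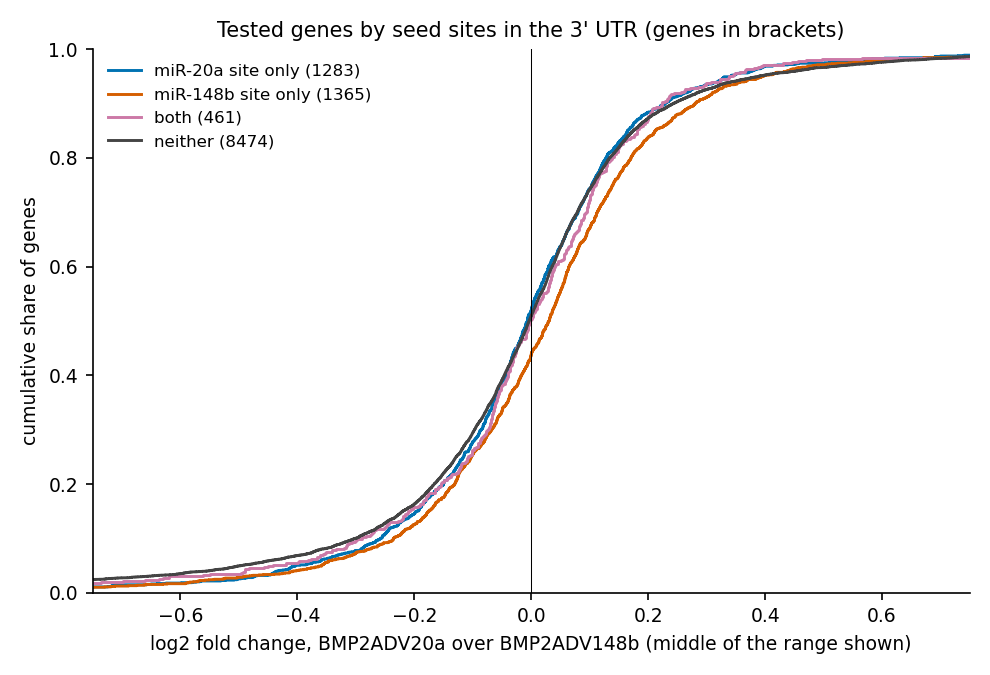
Cumulative share of genes (vertical) by log2 fold change of BMP2ADV20a over BMP2ADV148b (horizontal, shown from -0.75 to 0.75) for genes with a miR-20a site alone, a miR-148b site alone, both or neither in the 3′ UTR. The curve of miR-148b sites lies slightly to the right, with 43.8% of genes below 0 against 50.9% with neither.

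Of the 7 higher genes, 4 (57.1%) held a miR-148b site, Nptn, Pdia3, Pofut1 and Tpm2, against 15.8% of genes with a 3′ UTR, and Tpm2 also held a miR-20a site. One site of each is shown with 8 bases on either side, the site in capitals, beside the miR-20a sites of the lower genes Ifit3, Ifit1 and Cmpk2.
Nptn: aaatctttTGCACTGatgtgtca
Pdia3: ttcttagcTGCACTGtttgaaaa
Pofut1: tggcagggTGCACTGaaagctgc
Tpm2: atctaccaTGCACTGacctccac
Ifit3: gaggcaacGCACTTTggggcaca
Ifit1: atattgtgGCACTTTtatcctgg
Cmpk2: attatcatGCACTTTgaatgtct
Of 63 lower genes with an annotated 3′ UTR, 6 (9.52%) held a miR-20a site, against 15.1% of genes with a 3′ UTR: besides these 3, Colec10, Rnf213 and Trp53inp1. A miR-148b site was held by 4 of the 63 (6.35%, against 15.8%): Ddit3, Helz2, Tor3a and Trp53inp1, which thus held both. These 4 genes were higher in BMP2ADV148b, the plasmid named after that microRNA. Neither site was held by 54 of the 63 lower genes, and by 73.2% of all genes with a 3′ UTR. A site is a match of letters and shows no binding. Among genes listed as reported targets, edgeR, DESeq2 and limma-voom each called 0 of 38 for miR-20a and 0 of 32 for miR-148b. By edgeR 4 and 3 of them had an unadjusted p under 0.05, against 7.79% of all tested genes. E2f1, a candidate of miR-20a, had 0.13, and Dnmt1, a candidate of miR-148b, had 0.05.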

How the data were processed

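The labels' protocols describe QuantSeq 3′ mRNA FWD libraries from 100 ng RNA, amplified with 16 cycles. Per the submitters' processing notes, FastQC 0.11.5, STAR 2.5.2a, HTSeq 0.6.0, DESeq2 3.11 (version as listed) and GRCm38 were used. The deposited values are read counts per gene, not normalised, 1 file per library. Strand setting, counting mode and annotation were not given in the sources used here. Records of no gene, 52.9% to 54.17% in these 6 libraries, were left out. Of 47643 genes, 47224 took a symbol from GENCODE M21.

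One edgeR 4.0.16 model (R 4.3.3) with 4 group means was fitted to all 12 libraries, with TMM scaling, filterByExpr, the quasi-likelihood F-test and Benjamini-Hochberg adjustment over 13229 genes at 0.05. Fold changes are BMP2ADV20a over BMP2ADV148b. The common biological coefficient of variation was 0.117. The model was tested on simulated data. Alternatives used limma 3.58.1 (voom), DESeq2 1.42.0, other scalings and filters, a replicate block, 6 libraries, and 12 fits leaving out 1 library each. No 2 libraries held the same values.

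Members and lists were chosen with earlier results of these data known. Named genes were Mir148b, Mir20a, Mir17hg, Copz1 and Bmp2, the 15 largest calls each way with at least 10 CPM in a group and no overlap, and at most 5 called genes per list, taken by smallest p. Other genes were chosen after their values were seen. The results of 2 genes are not reported here.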

Additional observations from a re-analysis of the deposited data

How the results depend on the processing

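Among the 37 named genes that were called, 13 kept their call under all 20 alternatives (Mir148b, Cxcl10, Mx1, Rsad2, Ccl7, Ccl2, Cxcl1, Iigp1, Ifit3b, Ifit3, Ifi47, Gbp7 and Trp53inp1), 29 under the 8 other than the fits leaving out 1 library, and 0 turned direction. Called genes numbered 76 with DESeq2's median-ratio scaling in edgeR, 74 with upper quartile scaling, 96 with DESeq2, 75 with limma-voom, 74 with a filter of 1 CPM in 3 libraries and 107 with a fit to the 6 libraries alone. Without a filter on low counts there were 137, and 8 MHC class I members were lower; the cause was not tested. Of those 137, 108 were lower (78.8%), against 90.5% of the 74. Leaving out 1 of the 12 libraries gave 22 to 93 called genes, 7 to 21 lower interferon members, 3 to 11 GTPase and p200 members, 0 to 6 MHC class I members and 3 to 5 NF-kB members. Same-numbered libraries of the 2 groups deviated together by r = 0.0255, 0.0305 and 0.0715, too little to treat them as pairs, although each correlated best with its own number, a hint from the data and not the design. The replicate block gave 58 calls and lost Actg2, Anxa8, Tpm2, Pdia3, Mgp, Nptn, Ccl5 and Samhd1 (adjusted p from 0.0507 to 0.0942). With 3 libraries a group and 9236431 to 14727288 gene counts each, scarce genes such as Ifnb1 and Bmp2 have wide intervals, and a missed threshold does not show equal levels.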
